A study of Mus musculus with 8 samples.

Results

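The p53 pathway was examined through 36 genes, namely p53 itself (Trp53), its direct regulators and a set of its established target genes. Members were taken by name, as the transcripts whose symbol was on a list of 36, and all 36 were among the 13558 transcripts measured. The data are normalized read counts from 8 mRNA-seq libraries of male C57BL/6 mouse embryonic stem (mES) cells, which are grown from early blastocysts. 4 libraries were Trim71 mutant (genotype Trim-/-, called KO) and 4 carried the intact conditional allele (genotype Trimfl/fl, called WT). All cells came from animals homozygous for the floxed Trim71 allele and for a tamoxifen-dependent Cre at the Rosa26 locus, and recombination was induced with 4-hydroxytamoxifen, per the labels at 500 nM for 2 days, followed by at least 7 days of culture. The study's methods differ from the labels, with a lower concentration and a shorter culture afterwards. They give the solvent DMSO as the treatment of the controls. Cells bearing the surface antigen SSEA-1 were selected from both groups before lysis. Both genotypes came from the same 2 clones, with 3 KO and 2 WT libraries from clone E3 and 1 KO and 2 WT libraries from clone 1, so these libraries speak for 2 cell clones. The labels also number the days: days 3, 4 and 5 each hold 1 library of both genotypes, KO replicate 1 is of day 2 and WT replicate 1 of day 1.

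p53 is a transcription factor that cells keep at a low protein level, chiefly through the ubiquitin ligase Mdm2, which is itself a p53 target and so closes a feedback loop. DNA damage and other stresses block this turnover, after which p53 binds DNA as a tetramer and switches on genes that halt the cell cycle, repair DNA or start apoptosis. Much of this regulation acts on the protein, which mRNA counts do not measure. mES cells are known to carry abundant Trp53 mRNA and to arrest poorly after DNA damage.

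The targeted gene was below every WT library (1988 to 2782 normalized counts) in every KO library (247 to 793), an exact two-sided permutation p of 0.0286, which is the smallest that 4 against 4 libraries can give. This permutation test allows for neither clone nor day. Deletion removes exon 4 of Trim71 only, and whether the residual counts come from the remaining exons or from unrecombined alleles was not tested. Reads recovered from the deposited values (explained with the processing) ranged from 6686194 to 24858074 per library over the deposited transcripts. KO replicate 3 stood apart from the other libraries on values with the authors' clone correction undone (explained with the processing). Across all recovered transcripts its deviations from the mean over libraries had an SD of 0.63 on the log2 scale, against 0.34 to 0.44 in the others. All 10 ES cell markers listed were present. The 5 of 6 endoderm markers present, all but Afp, summed to 226 to 510.4 normalized counts in KO and 56.7 to 387 in WT. Of these, Gata6, Sox17 and Foxa2 were listed at the floor of 1 in WT replicate 1, and Foxa2 also in WT replicate 4, while the mesoderm marker T and the fibroblast marker Col1a2 reached the floor in 1 WT library each. All these floored values are in libraries of clone 1. A clone effect was subtracted before flooring (explained with the processing), so a value at the floor need not mean absent reads. The marker sums are of deposited values, with the clone correction in place. Of the 5 endoderm markers, 4 were higher in KO on average and Dab2 was lower, at 88.3 ± 23.7 (SD, n = 4) against 118 ± 60.9 (SD, n = 4). In the fit within days described below, Dab2 had a log2 fold change of -0.75 (SE 0.23, limma p 0.0288 unadjusted, 0.238 adjusted). For 5 of 6 neural markers (without Neurog2) the sums were 800.4 to 1049 and 965 to 1618, for 5 of 6 mesoderm markers (without Mixl1) 187 to 243 and 140.4 to 223, and for 4 of 8 fibroblast markers (without Col3a1, Dcn, Lum and Postn) 130.2 to 248 and 94.7 to 211. The part of these cell types in the results below was not tested. In bulk RNA, fewer cells of a type and less RNA per cell cannot be told apart.

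Most of the pathway was well expressed. In 32 of the 36 members every library was above 100 normalized counts. Per kilobase of annotated exon, WT levels were highest for Ccng1 (cyclin G1) at 1437 normalized counts, Bax at 1279, Gtse1 at 1147 and Trp53 at 1016. The lowest were Ccnd2 at 13.3, Tgfa at 6.00, Dram1 at 5.53 and Fas at 2.10. Dram1 and Tgfa rest on few reads, and the values of Fas in WT replicates 1 and 2 were at the floor of 1 that the authors set. In the map of all members by library these 4 rows are uneven.

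**Figure D1:**
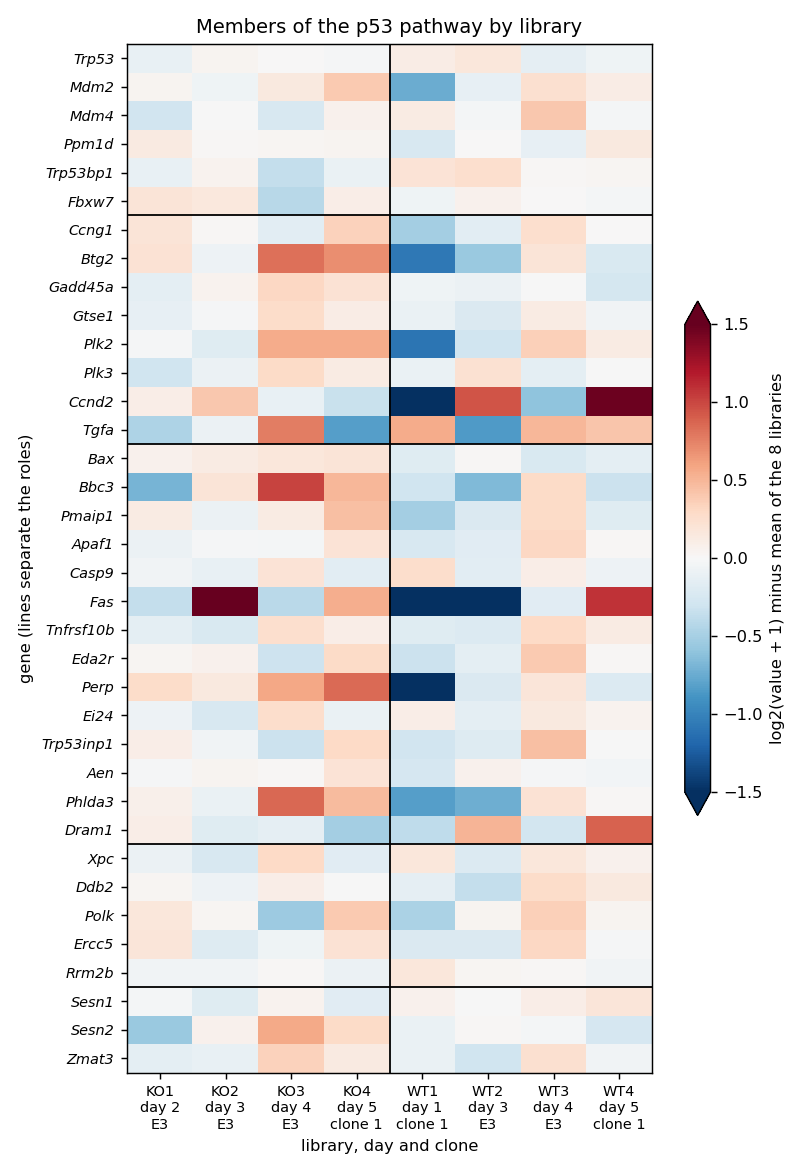
Each row is a member, each column a library, and colour gives log2(value + 1) minus the mean of that gene over the 8 libraries, with horizontal lines between the roles and a vertical line between KO and WT. KO replicates 3 and 4 and WT replicate 3 hold the highest values of many members, and WT replicate 1 the lowest of 18 of the 36 among the WT libraries (3 of 35 with the clone correction undone).

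The comparison of KO with WT asked whether transcripts of the pathway change when Trim71 is lost. With genotype and clone as terms, 0 of 36 members had a limma adjusted p under 0.05 (Benjamini-Hochberg), as had 0 of all 13558 transcripts. Trim71, the targeted gene, had a log2 fold change of -2.39 and a limma adjusted p of 0.294. An adjusted p above 0.05 thus does not show that a gene is unchanged here. At an unadjusted limma p under 0.05 there were 2 members, Btg2 and Bax, both higher in KO, against 9.09% of all transcripts in either direction (4.62% higher, 4.46% lower). The fold change criterion, which asks for such a p and a fold change of at least 1.5, was passed by 1 member, Btg2. Its background was 4.25% of all transcripts in either direction, 1.76% higher and 2.49% lower. The median log2 fold change of the members was 0.04 and that of all transcripts 0.00. Of the members 24 lay above 0, as did 6774 of all 13558 transcripts. The counts of called members were thus near the background share, and fold changes of most members were small against their standard errors, as the plot of fold changes shows.

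**Figure D2:**
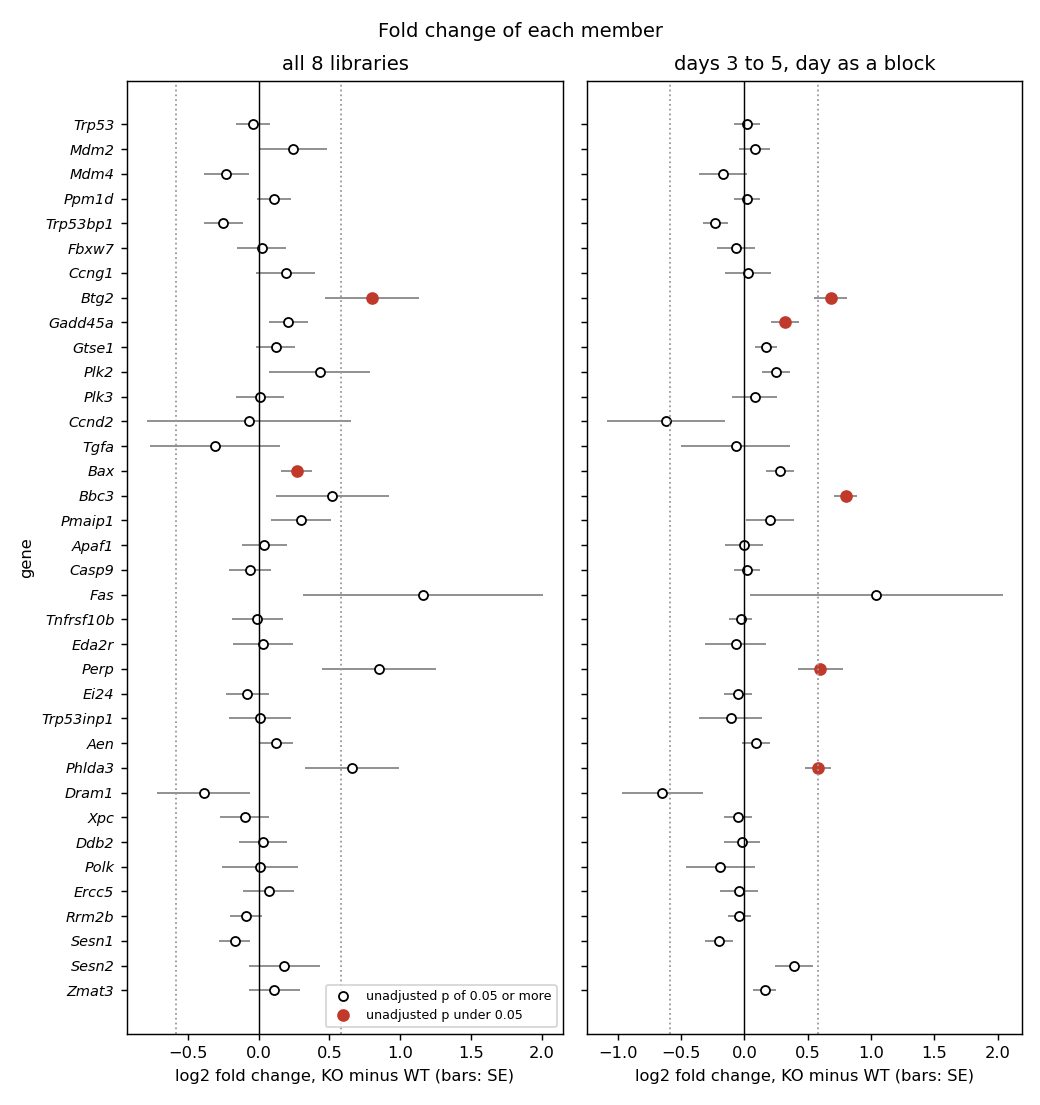
Log2 fold change of each member (KO minus WT, on the log2(value + 1) scale) with its standard error, from all 8 libraries with genotype and clone as terms (left) and from the 6 libraries of days 3, 4 and 5 with day as a block (right); dotted lines mark a fold change of 1.5 and filled points an unadjusted limma p under 0.05. Btg2 is filled in both panels, Bax on the left only, and Gadd45a, Bbc3, Perp and Phlda3 on the right only; the point of Fas rests on values at the floor.

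Days 3, 4 and 5 allowed a comparison within days. With day as a block over these 6 libraries, which leaves out KO replicate 1 and WT replicate 1, 5 members had an unadjusted limma p under 0.05, against 19.2% of all transcripts (9.92% higher, 9.26% lower). All 5 were higher in KO: Btg2, Gadd45a, Bbc3, Perp and Phlda3. The fold change criterion was passed by Btg2, Bbc3 and Perp, where 7.49% of all transcripts passed it in either direction, 3.13% as higher and 4.35% as lower ones. As before, 0 members and 0 transcripts had a limma adjusted p under 0.05. The median of the members was 0.02, and 19 of 36 lay above 0 (49.6% of all transcripts). Higher values in KO on each of the 3 days were found in 10 members (24.6% of all transcripts) and lower ones in 3 (25.5%). The share of members was close to the background for higher values and below it for lower ones.

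Among p53 and its direct regulators, 6 genes, 0 passed either threshold in either fit. Trp53, on chromosome 11 from 69580359 to 69591873 (mm10), held 3739, 4154, 4036 and 3974 normalized counts in the KO libraries (replicates 1 to 4, in this order throughout) and 4368, 4538, 3677 and 3851 in the WT libraries. The KO libraries lay within the range of the WT libraries. The means were 3976 ± 175 (SD, n = 4) and 4108 ± 409.8 (SD, n = 4), so that the log2 fold change came to -0.04 (standard error, SE, 0.12, limma adjusted p 0.919). Within days it was 0.02 (SE 0.10).

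Mdm2, the ubiquitin ligase that p53 both induces and is degraded by, had 3826, 3570, 4128 and 4890 normalized counts in KO and 2218, 3415, 4404 and 4027 in WT. WT replicate 1 was the lowest (before the clone correction WT replicate 2 was) and KO replicate 4 the highest, and the groups overlapped. The log2 fold change was 0.24 (SE 0.24, limma adjusted p 0.762). It was -0.02 without KO replicate 4, a fit in which clone 1 holds WT libraries only and the estimate comes from clone E3 alone. The block by day gave 0.08 (SE 0.12).

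Mdm4, the Mdm2 relative that masks the activation domain of p53, had a log2 fold change of -0.23 (SE 0.16). Trp53bp1, a chromatin reader at DNA breaks, had -0.25 (SE 0.14). It was lower in KO on each of the 3 days, with KO minus WT differences of -0.19, -0.37 and -0.12 on the log2 scale. About 15.0% of its annotated exonic bases overlap Tubgcp4 on the other strand, and the library kit does not mark strand. Ppm1d, a phosphatase that resets the pathway after damage, and Fbxw7, the substrate receptor of a ubiquitin ligase and a p53 target, had log2 fold changes of 0.11 and 0.02. Fbxw7 was at 528 in KO replicate 3 and at 759 to 806 in the other KO libraries.

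Of 8 members that act on the cell cycle and growth, 6 had log2 fold changes above 0 and Btg2 passed the fold change criterion. Btg2, an antiproliferative protein that recruits the CCR4-NOT deadenylase, lies on chromosome 1 from 134075170 to 134079120. It held 1598, 1311, 2446 and 2235 normalized counts in KO and 658, 941, 1574 and 1181 in WT. KO replicates 3 and 4 were above every WT library, KO replicate 1 barely so, and KO replicate 2 was below WT replicate 3. Before the clone correction KO replicate 1, at 1353, was below WT replicate 4, at 1426. The means were 1897 ± 532 (SD, n = 4) and 1088 ± 388 (SD, n = 4). The log2 fold change was 0.80 (SE 0.33), a limma p of 0.0451 unadjusted and 0.543 adjusted. The exact two-sided permutation p was 0.0571.

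This difference depended on single libraries. Leaving out 1 library gave log2 fold changes of Btg2 from 0.50 to 1.09, all above 0, and in 6 of 8 such fits the unadjusted limma p was above 0.05, at most 0.253; the exceptions left out KO replicate 2 or WT replicate 3. Within days the difference was 0.48, 0.64 and 0.92 on days 3, 4 and 5. The block by day gave a log2 fold change of 0.68 (SE 0.13), and the limma p was 0.00540 unadjusted and 0.207 adjusted.

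Gadd45a, a stress sensor that binds PCNA and the p21 protein, had 1315, 1519, 1810 and 1691 normalized counts in KO and 1391, 1370, 1449 and 1214 in WT. KO replicate 1 was within the WT range and the other 3 KO libraries above it. Before the clone correction KO replicate 4, at 1543, was below WT replicate 3, at 1597. The log2 fold change was 0.21 (SE 0.14) over all libraries (limma p 0.176). It was 0.32 (SE 0.11) with day as a block, where the limma p was 0.0456 unadjusted and 0.254 adjusted. Of its annotated exonic bases 19.1% overlap E230016M11Rik on the other strand.

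Plk2 and Plk3, polo-like kinases, had log2 fold changes of 0.43 (SE 0.36) and 0.01 (SE 0.17). Plk2 was at 293 normalized counts in WT replicate 1 and at 508 to 802 in the other WT libraries, but before the clone correction WT replicates 1 and 2 were at 407 and 393. Its log2 fold change was 0.09 without KO replicate 4, again from clone E3 alone. Ccng1, a target that recruits a phosphatase to Mdm2, had 0.19 (SE 0.21), and -0.03 without KO replicate 4 (clone E3 alone). Gtse1, which shuttles p53 out of the nucleus, had 0.12. Ccnd2 (cyclin D2), at 23.6 to 248 normalized counts in WT, and Tgfa, a growth factor at 17.5 to 48.3, varied too widely within WT for a comparison, with standard errors of 0.72 and 0.46. Tgfa rests on 5 reads in WT replicate 2 and 85 in WT replicate 3.

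**Figure D3:**
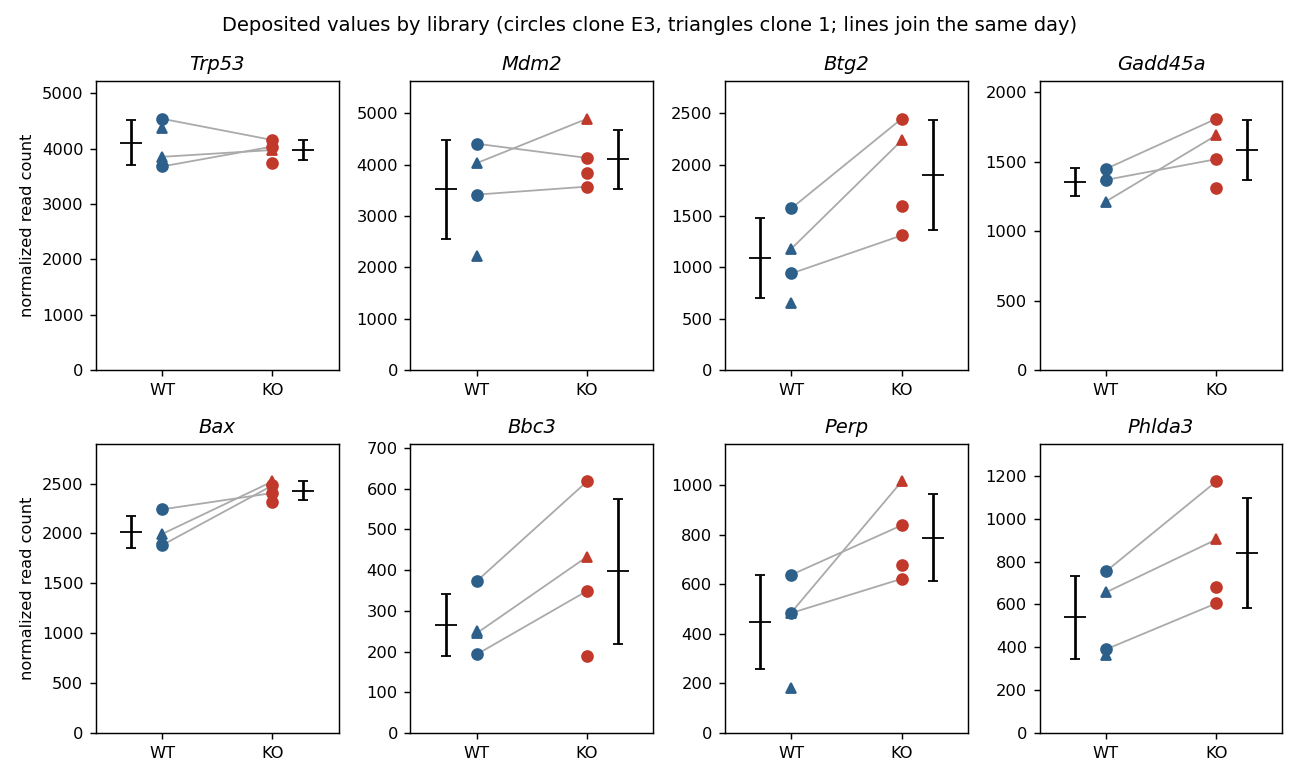
Deposited normalized read counts of Trp53, Mdm2 and the 6 members with an unadjusted limma p under 0.05 in 1 of both fits or in both, by genotype, with circles for clone E3, triangles for clone 1, the mean and SD (n = 4) beside each group, and lines between libraries of the same day. Bax is the only gene of the 36 whose groups do not overlap, while Btg2, Gadd45a, Bbc3, Perp and Phlda3 are higher in KO on each of the 3 days.

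Of 14 members that act in apoptosis, 10 had log2 fold changes above 0 and 1, Bax, had an unadjusted limma p under 0.05. Bax, which permeabilises the outer mitochondrial membrane, lies on chromosome 7 from 45461697 to 45466898. Its values were 2310, 2405, 2481 and 2521 normalized counts in KO and 1946, 2241, 1882 and 1994 in WT. Every KO library lay above every WT library. Such a separation upward was found in 1 of 36 members and in 5.48% of all transcripts, and a separation downward in 0 members and 4.62% of all transcripts.

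The difference in Bax was small, at 2429 ± 93.0 (SD, n = 4) against 2016 ± 157 (SD, n = 4). The log2 fold change was 0.27 (SE 0.11), below the fold change criterion, with a limma p of 0.0436 unadjusted and 0.541 adjusted and an exact two-sided permutation p of 0.0286. Leaving out 1 library gave 0.22 to 0.35, with unadjusted limma p-values from 0.0230 to 0.191; in 6 of the 8 fits that p was above 0.05. Blocked by day it was 0.28 (SE 0.11, limma p 0.0618). On the untransformed values the limma p was 0.00559. Bax shares 12.2% of its annotated exonic bases with the overlapping gene model Gm45808.

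Bbc3 encodes PUMA, a BH3-only protein that frees Bax from its inhibitors. It was at 188, 349, 618 and 433 normalized counts in KO and at 249.5, 193, 373 and 245 in WT. KO replicate 1 was the lowest of all 8 libraries and KO replicates 3 and 4 the highest, so the groups overlapped and the log2 fold change over all libraries was 0.52 (SE 0.40, limma p 0.234). Within days the differences were close to each other, at 0.85, 0.73 and 0.82. Blocking by day gave a log2 fold change of 0.80 (SE 0.09), and the limma p was 0.000893 unadjusted and 0.199 adjusted, the smallest unadjusted one of the 36 members. This fit leaves out KO replicate 1, the lowest KO library with or without the clone correction.

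Perp, a p53 target in the plasma membrane, had 679, 622, 838 and 1015 normalized counts in KO and 183, 484, 638 and 486 in WT. WT replicate 1 was far below the rest, and KO replicate 2 was below WT replicate 3. Before the clone correction WT replicate 1 was at 327 and WT replicate 2 at 339.9, so it did not stand apart there. The log2 fold change was 0.85 (SE 0.40, limma p 0.0689 unadjusted, 0.578 adjusted), and leaving out 1 library moved it between 0.35 and 1.12. The lowest value was reached without KO replicate 4, where the estimate comes from clone E3 alone. Blocked by day it was 0.60 (SE 0.18), and the limma p was 0.0278 unadjusted and 0.235 adjusted.

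Phlda3, which holds back the kinase Akt, had 681, 605, 1174 and 903 normalized counts in KO and 363, 389.9, 754 and 656 in WT. KO replicates 3 and 4 were above every WT library and the other 2 KO libraries within the WT range. The log2 fold change was 0.66 (SE 0.33) over all libraries (limma p 0.0883) and 0.58 (SE 0.10) with day as a block, just under the fold change criterion. There the limma p was 0.00385 unadjusted and 0.202 adjusted.

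The remaining apoptosis genes did not pass a threshold in either fit. Pmaip1 (NOXA), another BH3-only protein, had a log2 fold change of 0.30 (SE 0.21). It was 0.02 without KO replicate 4, from clone E3 alone, and 0.52 without WT replicate 3 (limma p 0.0294, unadjusted). Apaf1 and Casp9, the scaffold and the protease of the apoptosome, had 0.04 and -0.06, and the death receptor Tnfrsf10b -0.01 with differences of at most 0.05 in size on each of the 3 days. Trp53inp1, a cofactor of p53 in apoptosis, had 0.01, Eda2r, an ectodysplasin receptor of the TNF receptor superfamily, 0.03, the nuclease Aen 0.12 and the membrane protein Ei24 -0.08. Fas, the classical death receptor, was listed at 3.52, 28.7, 3.38 and 7.40 in KO and at 1.00, 1.00, 4.14 and 11.2 in WT. Dram1, a lysosomal protein of autophagy, rests on 9 to 11 reads in each KO library and 9 to 23 in each WT library. Levels this low do not allow a comparison of either gene.

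In DNA repair and nucleotide supply 0 of 5 members passed a threshold in either fit. The damage sensors of nucleotide excision repair, Xpc and Ddb2, had log2 fold changes of -0.10 and 0.03, and its nuclease Ercc5 0.07. Rrm2b, the ribonucleotide reductase subunit under p53 control, was at 350.5 to 376 normalized counts in KO and 359 to 419 in WT, with a log2 fold change of -0.09. Polk, a translesion polymerase, had 0.01 (SE 0.27) and was at 307 in KO replicate 3 against 458 to 591 in the other KO libraries. Ddb2 shares 23.8% of its annotated exonic bases with Acp2 on the other strand.

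Of the stress genes, the sestrins Sesn1 and Sesn2, which restrain the growth kinase mTORC1, and the RNA-binding protein Zmat3, 0 of 3 passed. Sesn1 had a log2 fold change of -0.17 (SE 0.11) and was lower in KO on each of the 3 days. Sesn2 had 0.18 (SE 0.25) and was at 820.3 in KO replicate 1 against 1261 to 1791 in the other KO libraries. With day as a block it had 0.39 (SE 0.15, limma p 0.0577). Zmat3 had 0.11.

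Within each genotype, many members were high or low in the same libraries. In the deposited values, WT replicate 1 held the lowest WT value of 18 members (20.7% of all transcripts) and WT replicate 3 the highest of 21 (31.1%). Among the KO libraries, replicate 3 held the highest of 17 (37.5%) and replicate 4 the highest of 12 (13.1%). The median deviation of the members from their mean over libraries was -0.20 in WT replicate 1 and 0.18 in WT replicate 3 on the log2 scale, and 0.12 and 0.16 in KO replicates 3 and 4. Those of all transcripts were between 0.01 and 0.03 in each library. Which WT libraries were extreme depended on the authors' clone correction. With it undone, WT replicate 1 was the lowest WT library in 3 of 35 members (16.6% of all transcripts) and WT replicate 2 in 20 (31.6%), while WT replicate 4 was the highest in 16 (21.8%) and WT replicate 3 in 9 (28.5%). The median deviations of the members were then 0.00, -0.21, 0.10 and 0.18 in WT replicates 1 to 4. KO replicates 3 and 4 were the highest KO libraries in 15 (33.5%) and 18 (24.5%) members on those values.

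Fold changes of the members depended on single libraries. Without KO replicate 4, the single KO library of clone 1, the median of the members was -0.01, 17 of 36 were above 0, and 0 had an unadjusted limma p under 0.05. In that fit clone 1 holds WT libraries only, so with a clone term the log2 fold changes come from clone E3 alone. A fit of clone E3 alone, with 3 KO and 2 WT libraries, gave the same log2 fold changes by construction and is no second check. Its median was -0.01, with 0 members at an unadjusted limma p under 0.05. The interaction of genotype and clone had 0 members with a limma adjusted p under 0.05 and 0 with an unadjusted one (0.0885% and 2.59% of all transcripts).

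**Figure D4:**
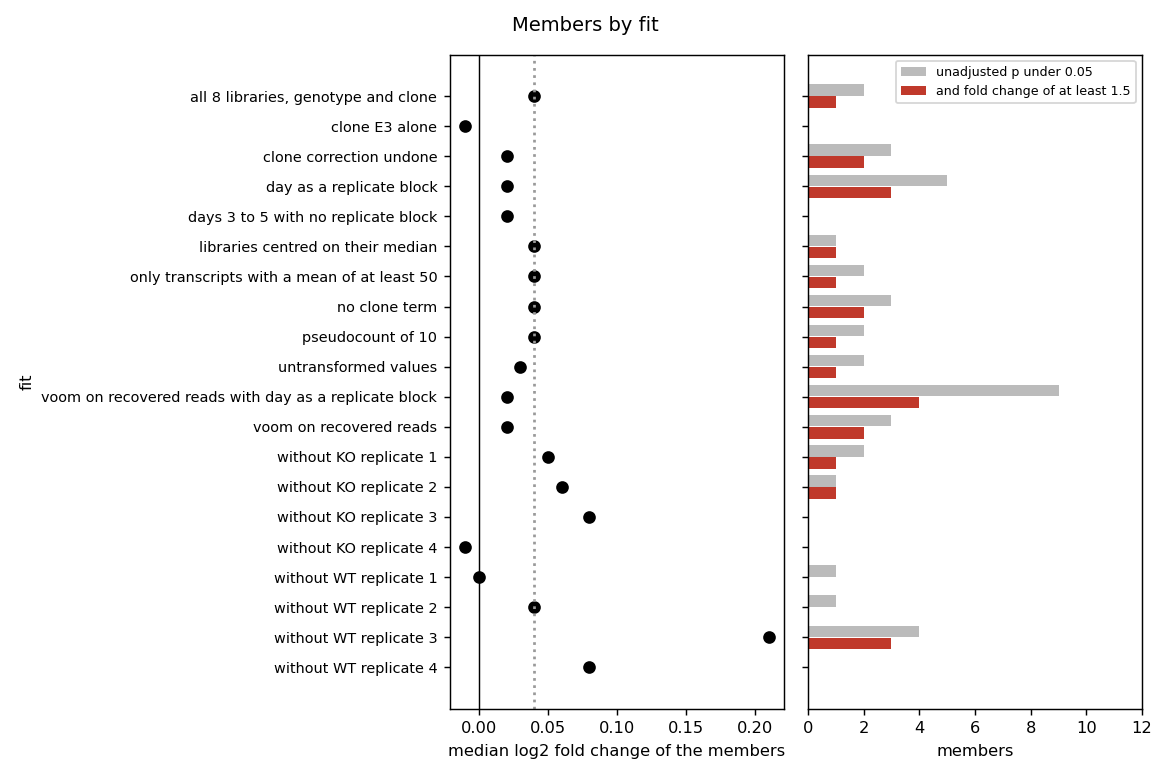
Median log2 fold change of the members in each fit (left; dotted line at the value from all 8 libraries) and number of members with an unadjusted limma p under 0.05 and past the fold change criterion (right). The median lies between -0.01 and 0.21, and the criterion is passed by 0 to 4 members.

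Before deposit, a clone effect had been subtracted from every transcript, which hides how the members differed between clones. Undoing it gave back whole reads for 35 of the 36 members, all but Fas. On these values 28 of 35 members were higher in clone 1 than in clone E3 (52.6% of all transcripts), with a median log2 difference of 0.25. At an unadjusted limma p under 0.05 there were 6 members, Mdm2, Mdm4, Pmaip1, Eda2r, Trp53inp1 and Sesn1, all higher in clone 1, against 8.32% of all transcripts in either direction, 4.61% as higher and 3.71% as lower ones. The fold change criterion was passed by 3, Pmaip1, Eda2r and Trp53inp1, all higher, against 4.17% in either direction, 3.11% as higher and 1.06% as lower ones. Of the members 0 had a limma adjusted p under 0.05, and of all transcripts 0. This comparison was added after the data had been seen. No day holds both clones, so clone and day cannot be told apart.

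Before correction, Mdm2 was at 5685 normalized counts in the KO library of clone 1 and at 3013 and 4822 in its WT libraries, replicates 1 and 4. In clone E3 it was at 3031, 2776 and 3333 in KO and 2621 and 3609 in WT. The log2 difference between clones was 0.56 (SE 0.23, limma p 0.0403 unadjusted, 0.587 adjusted). Eda2r was at 861, 612 and 737 in clone 1 in the same order and at 469, 484, 342, 398 and 640.4 in clone E3, a log2 difference of 0.67 (SE 0.24). The clones overlapped for both genes: KO replicates 1 and 3 and WT replicate 3 of clone E3 were above WT replicate 1 of clone 1 in Mdm2, as was WT replicate 3 in Eda2r. Sesn1, at 307, 357 and 383 against 239 to 299, was the only member with every library of clone 1 above every library of clone E3, a pattern of 3.98% of all transcripts, and the reverse held for 0 members and 3.96% of all transcripts. Trp53 itself had a log2 difference of -0.13 (SE 0.12).

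**Figure D5:**
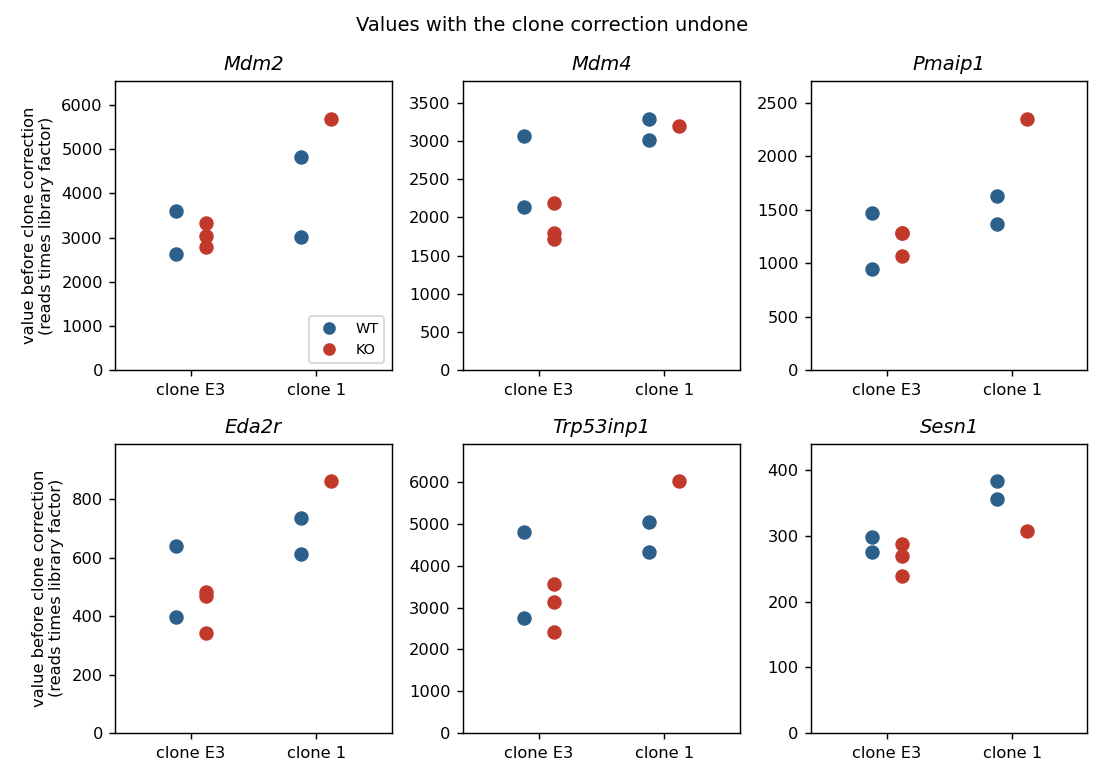
Values before the clone correction (reads times a factor per library) of the 6 members with an unadjusted limma p under 0.05 between clones, with WT in blue and KO in red. Clone 1 has 1 KO and 2 WT libraries and clone E3 has 3 and 2; WT replicate 3 is the highest library of clone E3 for each gene shown.

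The count past the criterion depended on single libraries here too. Without WT replicate 1 it was 7, without WT replicate 3 it was 6, without KO replicate 2 or WT replicate 2 it was 1, and without KO replicate 4 or WT replicate 4 it was 0. With the correction undone, the comparison of KO with WT passed the criterion in 2 members, Btg2 and Perp (4.36% of all transcripts), with log2 fold changes of 0.80 and 0.77 and unadjusted limma p-values of 0.0452 and 0.0353.

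Cdkn1a encodes p21, the main p53 effector of cell cycle arrest, and is not among the 36. It was at 904, 836, 1889 and 1593 normalized counts in KO and at 487, 663, 1249 and 850.2 in WT. KO replicates 3 and 4 were above every WT library, and the other KO libraries within the WT range. Its log2 fold change was 0.66 (SE 0.40, limma p 0.138 unadjusted, 0.645 adjusted), and 0.61 (SE 0.15) with day as a block (0.0127 and 0.218). Leaving out 1 library gave log2 fold changes of Cdkn1a from 0.31 to 1.02. The unadjusted limma p was at most 0.544 and was under 0.05 only without WT replicate 3.

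Cdkn1a belongs to a list of 30 further p53 targets, all present. Of these 25 had log2 fold changes above 0, with a median of 0.22, against 0.04 for the members and 0.00 for all transcripts. At an unadjusted limma p under 0.05, 5 were higher and 1 was lower (4.62% and 4.46% of all transcripts), and the fold change criterion was passed by 1 as higher (1.76%). That gene was Epha2, an ephrin receptor, at 2585, 3398, 3266 and 4245 normalized counts in KO and 1142, 2480, 1908 and 1502 in WT, with no overlap. Its log2 fold change was 0.92 (SE 0.27, limma p 0.0107 unadjusted, 0.452 adjusted). Without KO replicate 4 it was 0.49, from clone E3 alone, with an unadjusted limma p of 0.0684. Blocked by day, 11 of the 30 were higher and 1 lower at that p (9.92% and 9.26% of all transcripts), and 5 passed the criterion as higher (3.13%). These were Cdkn1a, Epha2, the sugar reductase Dcxr, the epoxide hydrolase Ephx1 and the secreted factor Gdf15, the last 3 with log2 fold changes of 0.64 (SE 0.10), 0.76 (SE 0.13) and 0.84 (SE 0.22). Over all 8 libraries the unadjusted limma p of these 3 was 0.230, 0.0850 and 0.317. Gdf15 was low, at 10.3 to 52.1 normalized counts in KO and 14.8 to 22.7 in WT. Its lowest value was in KO replicate 1, which the block leaves out. Of the list 0 had a limma adjusted p under 0.05 in either fit. As the list was assembled with earlier results on p53 targets in these libraries known, its direction is not independent evidence.

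Of 23 kinases, ligases and cofactors of p53, 20 were present, without Trp53rka, Trp53rkb and Trp63. 9 had log2 fold changes above 0, and the median was -0.11. The criterion was passed by 1, Cdkn2a, whose product Arf binds and inhibits Mdm2. It was at 161, 205, 239.6 and 236 normalized counts in KO and at 87.0, 150.3, 142 and 154 in WT. Every KO library was above every WT library, with a log2 fold change of 0.65 (SE 0.24) and a limma p of 0.0287 unadjusted and 0.498 adjusted. Without KO replicate 2, 3 or 4 or WT replicate 3 the unadjusted limma p was above 0.05, at most 0.176, and the log2 fold change was at least 0.45 with any 1 library left out. The counts do not tell Arf from the other product of the locus, p16. Blocked by day, 1 of the 20 was higher and 2 were lower at an unadjusted limma p under 0.05 (9.92% and 9.26% of all transcripts), and 0 had an adjusted one in either fit. The criterion was then passed by Cdkn2a as higher, with a log2 fold change of 0.60, and by the damage kinase Atm as lower, with -0.75 (SE 0.27, limma p 0.0452 unadjusted, 0.254 adjusted). Atm was at 428 normalized counts in KO replicate 3 and at 1218 to 1622 in the other KO libraries.

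The promoters of the members were searched for the p53 half-site consensus, of which p53 binds a pair. RefSeq promoters (250 bases before to 50 after the start, GRCm38.p6) were given for 27 members, and the half-site was found in 11 of them (40.7%), against 8.20% of 10158 transcripts of the table with such an entry. The consensus is its own reverse complement, so that a single search covers both strands. A pair of half-sites at most 13 bases apart was found in 0 members and in 6 transcripts of the table. The 11 members with a half-site had a median log2 fold change of 0.12, with 8 above 0, and the 16 without one 0.04, with 11 above 0. Stretches of 30 bases are shown for 4 members whose values are given in full and for Ccng1, the member with the highest level per kilobase, with the half-site in capitals. They lie on chr11:69580274-69580303 (plus strand), chr10:117710925-117710954 (minus), chr6:67037428-67037457 (minus), chr7:45467080-45467109 (minus) and chr11:40755452-40755481 (minus), in this order.
Trp53: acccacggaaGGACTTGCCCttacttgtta
Mdm2: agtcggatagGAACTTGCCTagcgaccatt
Gadd45a: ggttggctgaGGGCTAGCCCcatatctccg
Bax: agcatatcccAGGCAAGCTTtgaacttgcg
Ccng1: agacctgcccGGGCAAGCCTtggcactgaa

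In these windows the first base of the half-site lies 75, 186, 40, 201 and 185 bases before the start given by the RefSeq promoter entry. For Gadd45a and Ccng1 this start differs from that of the gene annotation used for positions. The window of Gadd45a lies within the annotated gene (67035096 to 67037457). Of the 5 members with an unadjusted limma p under 0.05 in the fit with day as a block, Gadd45a holds a half-site, Btg2, Bbc3 and Phlda3 hold none in this window, and no entry was given for Perp. A match is a match of letters and says nothing of binding in these cells.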

How the data were processed

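The study sequenced poly(A) mRNA of 4 KO and 4 WT libraries with a kit that does not mark strand. The authors aligned reads to mm10 with TopHat2 and Bowtie2 2.2.1, counted reads per RefSeq transcript in Partek 6.6, divided counts by DESeq2 size factors, corrected for batch, set values under 1 to 1 and dropped transcripts whose highest group mean was under 10. The deposited values are this signal (normalized read counts), not raw counts. 0 columns of values were left unused.

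The values showed that a clone effect of a linear model with genotype and clone had been subtracted: it was 0 to the printed precision in all 13350 transcripts without a floored value. Undoing it gave unique whole reads for 13459 of 13558 transcripts (99.3%), which gave back 100% of the deposited values.

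The test was limma (version 3.58.1, R 4.3.3), fitted to log2(value + 1) with terms for genotype and clone, with p-values adjusted by Benjamini-Hochberg over all transcripts. This scale understates changes of low transcripts. After the correction 1 library of each transcript is fixed by the other 7, which the clone term allows for. Same-day pairs of libraries deviated together (correlation across transcripts of 0.54, 0.63 and 0.52 with the correction undone, against a median of -0.18 over 13 pairs of different days). On the values as deposited, to which the block was fitted, these were 0.42, 0.54 and -0.23 on days 3, 4 and 5, against 0.05. The label marks a shared day, so it was used as a block in a second fit. Nothing in the labels says that libraries are separate cultures beyond day and clone, so p-values measure the spread between these libraries. Gene positions, exonic lengths and overlaps came from GENCODE annotation of GRCm38. The recovery and the limma fits were tested on simulated data. Exact permutation tests ran over the 70 assignments of 8 libraries (Python 3.11.15, scipy 1.17.1). They used the deposited values and allowed for neither clone nor day. The clone correction, made with genotype in the model, ties 1 library of each transcript to the other 7. The libraries are thus not fully exchangeable, and these p-values are exact in name only.

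The members and lists were chosen with earlier results of these data known. All members are named, in the order of their roles, with full statistics for Trp53, Mdm2 and members with an unadjusted p under 0.05 in either fit. Of the other lists, those past the criterion in either fit and Cdkn1a are named. Alternatives were another pseudocount (10), a minimum mean (50), no clone term, untransformed values, the correction undone, voom, median centring, clone E3 alone, the block and leaving out each library.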

Additional observations from a re-analysis of the deposited data

Results flagged for a closer look

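In 72 groups of 4 values (36 members in KO and in WT), 3 held a library far from the other 3 by Dixon's 95% criterion. Chance flags about 1 in 20 groups, so this number is no more than chance gives. Fbxw7 in KO replicate 3 was listed at 528 normalized counts, below the other KO libraries. Tgfa in WT replicate 2 was listed at 17.5, below the other WT libraries, and rests on 5 reads. Fas in KO replicate 2 was listed at 28.7, above the other KO libraries at 3.38 to 7.40.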

How the results depend on the processing

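The number of members past the fold change criterion was 1 (Btg2). Undoing the clone correction, voom on recovered reads and leaving out the clone term gave 2 (Btg2 and Perp each time), 3 with day as a replicate block and 4 with voom and the block (Phlda3 in addition). It was 0 in clone E3 alone and 0 over days 3 to 5 with no block, a fit added after seeing the data. On untransformed values it was 1, with Perp in place of Btg2. Leaving out 1 library gave 0 to 3, with Bbc3 in place of Btg2 without KO replicate 1. Members with an unadjusted p under 0.05, 2 over all libraries, numbered 5 with the block, 9 when voom was added (8 higher, and Trp53bp1 lower), 1 with libraries centred on their median, 0 in clone E3 alone and 0 over days 3 to 5 with no block; leaving out 1 library gave 0 to 4. The median log2 fold change moved by less than the spread between libraries (SD 0.14) in all but 1 setting. Leaving out 1 library gave -0.01 to 0.21, the highest without WT replicate 3. Members past the criterion between the clones, 3, numbered 0 to 7 when 1 library was left out. Adjusted p-values stayed above 0.05 for all members in all settings, the interaction included, which could not be fitted without KO replicate 4. Of 678 values of single members, 548 kept direction and side of the threshold, 19 fell short of it, 20 newly passed it and 91 changed sign in members past it neither before nor after. The causes were not tested. Depth limits Fas, Dram1 and Tgfa, whose levels rest on few reads, and 4 libraries a group limit all else.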
